A study of Drosophila melanogaster with 2 samples.

Results

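The 52 protein-coding genes of Drosophila melanogaster whose symbol begins with eIF or eEF encode the translation initiation and elongation factors, and they are described here for sites of Groucho, the product of gro. They were chosen by symbol from 13945 protein-coding genes on 6 chromosome arms. No measured value entered this rule, but the family was taken up with earlier results of these data known. The embryos carried a stable transgene for gro with GFP at its C-terminus, and Groucho was mapped by ChIP-seq with an antibody to GFP. Males and females were mixed, and whole animals from 0 to 24 h of development were used. There was 1 group, whose 2 biological replicates bear the numbers 1 and 3, and no untagged or treated group is analysed here, so no contrast between conditions was tested. Whole embryos of all ages in this range were pooled, so a site in few cells and a weak site in many cannot be told apart.

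Initiation factors bring the initiator tRNA, the small ribosomal subunit and the capped mRNA together, and elongation factors then carry the ribosome along the message. Most of these are housekeeping genes that nearly every cell uses, and some paralogs are known from the germ line. Groucho is a corepressor that does not bind DNA itself and is brought to genes by DNA-binding repressors such as Hairy, Runt and Brinker. In flies many housekeeping promoters carry the DNA replication-related element (DRE), which is bound by DREF, and genes for the translation machinery often start at a pyrimidine-rich TCT initiator.

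In these embryos the translation factor genes had a Groucho site at a promoter in a higher share than all protein-coding genes. A promoter site here means a region of the list that the authors thresholded by the irreproducible discovery rate (IDR) between replicates. Its summit lay at most 1 kb from an annotated transcription start site (TSS) of the gene. The list holds the 4492 regions of highest signal in both replicates pooled, so a region in it need not rank that high in each replicate. Such a site was present at 29 of the 52 genes (55.8%, Wilson 95% interval 42.3 to 68.4%), beside 25.9% of all protein-coding genes. The size of the share depended on how regions were counted: it was 36.5% (19.2% of all genes) with each summit given to the nearest start only, 28.8% (15.1%) in the 2246 highest regions and 21.2% (11.1%) with summits near several genes left out. Lists of the same length from a single replicate gave 48.1% (25.4%) without replicate 1 and 51.9% (25.5%) without replicate 3. In the authors' longer list of 30000 regions called on both replicates pooled, 40 of the 52 genes had a summit this close to a start (76.9%), beside 57.3% of all protein-coding genes. The remaining 12 genes had none. The 29 sites were not high as a group: their median pooled signal was 116, beside 125 over all genes with a promoter site, and 5 of the 29 (17.2%) were among the 500 highest regions, beside 14.6%. The signal is the authors' value for a region, of unstated scale, and serves here to rank regions within a list. Without a precipitation from untagged embryos, binding and a general recovery of promoter chromatin cannot be told apart in these shares.

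The sequences below are shown because they lie under the highest sites of the family and let the promoter words be seen in place. They belong to the 6 genes of highest signal that had a stretch outside any annotated exon within 50 bases of the summit, on an arm whose sequence is printed; eIF3h was passed over because it had none. The summit itself lies inside the stretch at 5 of the 6 genes. Each is read from dm6, 5′ to 3′ on the strand of the gene, and capitals mark matches among 8 motifs searched. The eIF2Bbeta stretch lies at chrX:2703853-2703972 on the plus strand and holds the summit at base 35. The eEF1gamma stretch, chr3R:29220052-29220171 on the plus strand, ends 1 base before the start of eEF1gamma and holds the summit at base 88. The eIF1 stretch, chr3L:3222961-3223080 on the plus strand, holds the summit at base 48. It ends 261 bases before the start of eIF1, and the summit lies nearer to the neighbour RpL28. The eIF4EHP stretch, chr3R:24108961-24109080 on the minus strand, ends 1 base before the start of eIF4EHP and holds the summit at base 60. The eIF3a stretch, chr3R:4433896-4433964 on the minus strand, fills the gap between eIF3a and its neighbour CG1074 and holds the summit at base 26. The eIF4G2 stretch, chr3R:23819238-23819357 on the minus strand, ends 1 base before the start of eIF4G2, and the summit lies just past it inside the first exon.
eIF2Bbeta: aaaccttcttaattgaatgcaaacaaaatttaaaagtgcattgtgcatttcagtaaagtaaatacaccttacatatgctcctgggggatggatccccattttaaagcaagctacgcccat
eEF1gamma: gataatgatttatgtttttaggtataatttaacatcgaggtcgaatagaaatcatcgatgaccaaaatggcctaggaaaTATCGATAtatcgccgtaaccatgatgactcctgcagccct
eIF1: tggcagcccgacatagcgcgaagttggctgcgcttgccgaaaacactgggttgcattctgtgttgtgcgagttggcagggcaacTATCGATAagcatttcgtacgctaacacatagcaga
eIF4EHP: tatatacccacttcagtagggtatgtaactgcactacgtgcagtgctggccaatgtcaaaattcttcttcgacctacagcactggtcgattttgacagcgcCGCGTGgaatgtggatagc
eIF3a: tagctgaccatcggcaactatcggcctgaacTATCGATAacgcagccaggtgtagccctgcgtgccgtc
eIF4G2: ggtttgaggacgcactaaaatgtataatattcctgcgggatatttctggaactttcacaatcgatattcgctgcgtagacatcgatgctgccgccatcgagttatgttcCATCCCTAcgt

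The DRE word TATCGATA stands in 3 of these 6 stretches, at eEF1gamma, eIF1 and eIF3a. The eIF4EHP stretch carries CGCGTG, the reverse strand of the Hairy-type word CACGCG, and the eIF4G2 stretch carries a word of the motif 7 core CATCNCTA. The eIF2Bbeta stretch, under the highest site of the family, carried none of the 8 motifs and was 36.7% G and C, against 58.0% for the eIF3a stretch. The promoter of eIF2Bbeta, closer to its start, did hold the DRE and the motif 7 core. A window of 100 bp on each side of its summit, wider than the stretch, held a Runt word.

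**Figure D1:**
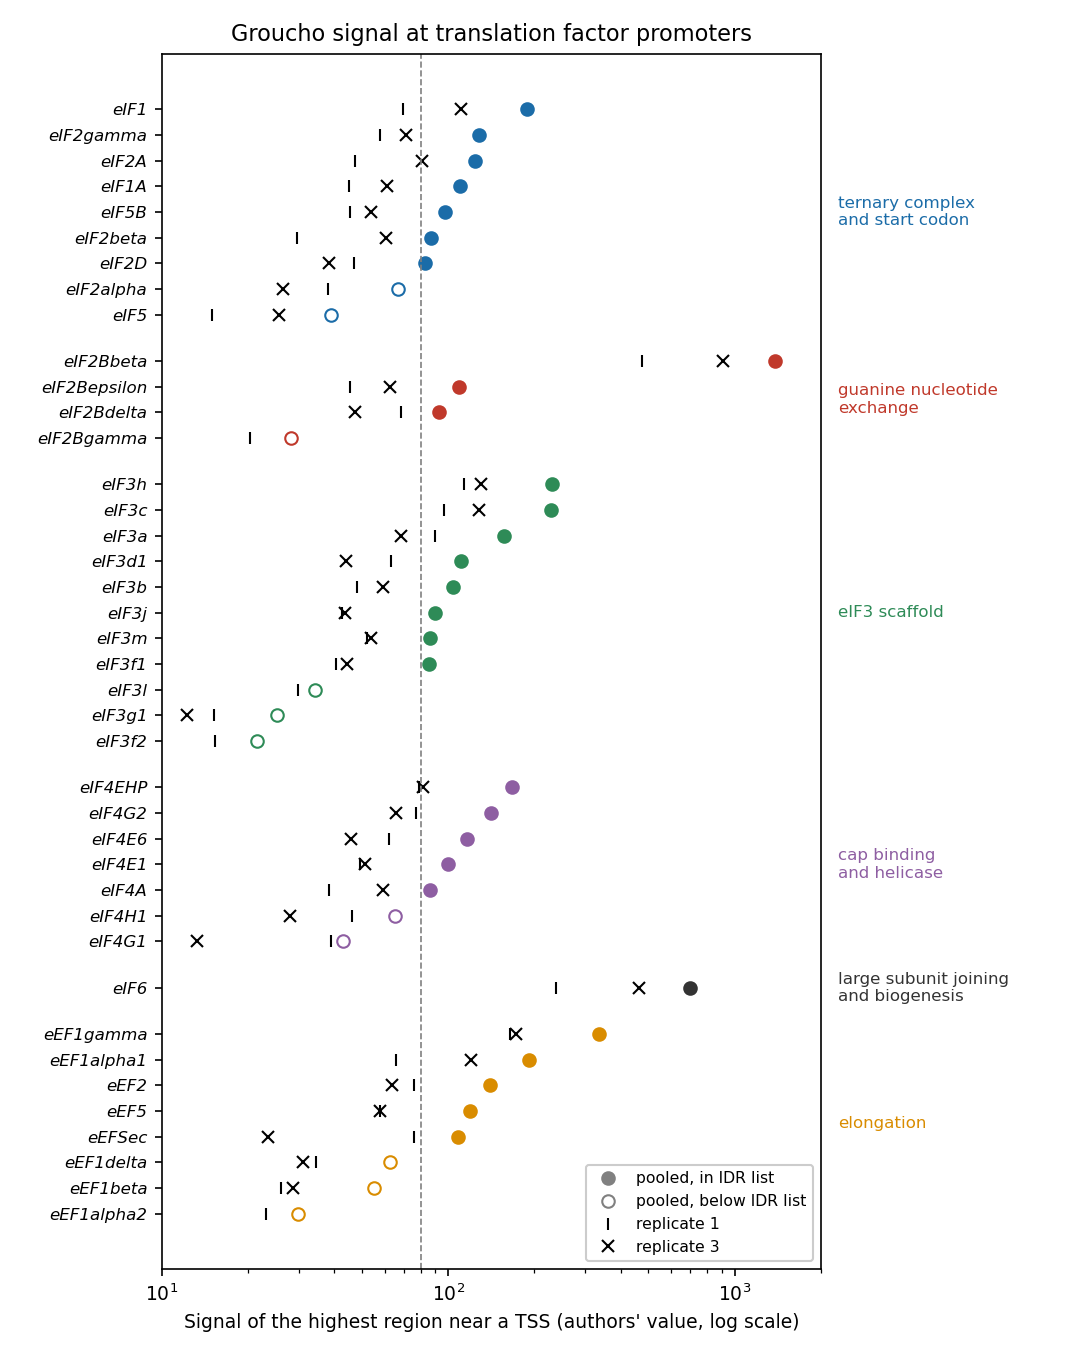
Signal of the highest region near a TSS for the 40 translation factor genes that have one, by role, on a log axis. Circles are the authors' pooled signal, filled for regions of the IDR list and open below it; bars and crosses are the regions of replicate 1 and replicate 3 that overlap it, on their own scales; the dashed line marks the lowest signal of the IDR list, 80.6. Genes eIF2Bbeta, eIF6 and eEF1gamma stand at the top with 1387, 701 and 337.

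The factors that place the initiator tRNA on the start codon had the highest share of genes with a site among the role groups of more than 1 gene. Of 9 such genes 7 had a promoter site (77.8%, Wilson 95% interval 45.3 to 93.7%), beside 25.9% of all protein-coding genes. This interval overlaps those of the other role groups, and differences between groups were not tested. All 9 had a pooled region, beside 57.3% of all protein-coding genes. The highest site was at eIF1, a small factor that guards the choice of start codon, with a pooled signal of 188. Its signal was 69.2 in replicate 1 and 111 in replicate 3 (89.9 ± 29.3, SD, n = 2). The eIF1 summit (dm6 3L, region 3222925 to 3223087) lay 333 bp upstream of eIF1 and 48 bp from the start of RpL28, a large-subunit ribosomal protein gene on the other strand. Next came eIF2gamma, the GTP-binding subunit of eIF2, with a pooled signal of 128 at 3R, 15263313 to 15263722. Its replicate signals of 57.8 in replicate 1 and 71.4 in replicate 3 (64.6 ± 9.64, SD, n = 2) were close to each other. Pooled signals were 124 at eIF2A, 110 at eIF1A, 97.1 at eIF5B, which helps the subunits join, 86.9 at eIF2beta and 82.7 at eIF2D. The values of eIF2beta and eIF2D were near the lowest signal of the IDR list, 80.6. The 2 others stayed below it: eIF2alpha, the subunit whose phosphorylation slows initiation, had a pooled region of 66.8 at 15 bp from its start, and eIF5, the GTPase activator of eIF2, had one of 39.0.

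The exchange factor eIF2B, which recharges eIF2 with GTP, included the highest and the farthest site of the family. Of its 5 subunit genes 3 had a promoter site (60%, Wilson 95% interval 23.1 to 88.2%). The share over all protein-coding genes, 25.9%, lies inside this interval. At eIF2Bbeta the pooled signal was 1387 (X, 2703702 to 2704090), the rank of 4 in the pooled list. Replicate 1 gave a signal of 475 and replicate 3 one of 910 (693 ± 308, SD, n = 2), and the site ranked 6 in replicate 1 and 3 in replicate 3. The summit lay 684 bp upstream of eIF2Bbeta but 35 bp from the start of Ugalt, a nucleotide sugar transporter gene that runs the other way. At eIF2Bepsilon the pooled signal was 109 and the summit lay 157 bp upstream, inside the neighbour Ocrl, a phosphoinositide phosphatase gene. At eIF2Bdelta it was 92.6, with the summit 751 bp upstream, the largest distance among the 29. That summit lay 302 bp from the start of CG30414 and 661 bp from that of roh, both on the other strand. Below the list, eIF2Bgamma had a pooled region of 28.3, and eIF2Balpha had none, with its nearest pooled summit 23722 bp from its start.

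Of the genes for eIF3, the multi-subunit scaffold on the small ribosomal subunit, 8 of 16 had a site (50%, Wilson 95% interval 28 to 72%). The share over all protein-coding genes was 25.9%. The highest pooled signals were 231 at eIF3h and 228 at eIF3c. At eIF3h (2L, 5052726 to 5052898) there was a signal of 113 in replicate 1 and 130 in replicate 3 (121 ± 12.2, SD, n = 2), and the pooled summit lay 7 bp downstream of a start. At eIF3c (2R, 17665456 to 17665865) it was 96.5 in replicate 1 and 128 in replicate 3 (112 ± 21.9, SD, n = 2), with the pooled summit 17 bp upstream. Replicate 1 was the higher at eIF3a, with 90.2 in replicate 1 and 68.3 in replicate 3 (79.2 ± 15.5, SD, n = 2; pooled 156). Pooled signals were 111 at eIF3d1, 104 at eIF3b, 90.0 at eIF3j, 86.5 at eIF3m and 85.4 at eIF3f1. Pooled regions below the list stood at eIF3l (34.1), eIF3g1 (25.3) and eIF3f2 (21.4, rank 29980 of 30000). The eIF3l summit lay 413 bp from eIF3l and 9 bp from the start of Nrx-IV. No region lay near the starts of eIF3e, eIF3i, eIF3k, eIF3d2 and eIF3g2.

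Among the cap-binding, helicase and scaffold factors of the eIF4 group 5 of 13 had a site (38.5%, Wilson 95% interval 17.7 to 64.5%). The share over all protein-coding genes, 25.9%, lies inside this interval. The highest site was at eIF4EHP, a cap-binding protein that represses translation of bound mRNAs. Its pooled signal was 167 (3R, 24108967 to 24109092), and the replicates gave 79.2 in replicate 1 and 81.3 in replicate 3 (80.2 ± 1.51, SD, n = 2). A further IDR summit of 106 lay 350 bp upstream of eIF4EHP, nearer to the divergent gene CG18428. The pooled signal was 141 at eIF4G2, with 76.9 in replicate 1 and 65.5 in replicate 3 (71.2 ± 8.07, SD, n = 2). At eIF4A, the RNA helicase of the complex, 1 IDR summit of 86.6 was joined by 3 pooled regions of 43.8 to 74.0. The general scaffold gene eIF4G1, on chromosome 4, had a pooled region of 43.0 at 414 bp downstream of its start, with 39.0 in replicate 1 and 13.2 in replicate 3. No region lay near eIF4B, eIF4H2, eIF4E3, eIF4E4, eIF4E5 or eIF4E7.

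Gene eIF6, whose product keeps free large subunits from joining too early, carried the second-highest site. The pooled signal was 701 (2R, 23850232 to 23850556), the rank of 29 in the pooled list. It was 238 in replicate 1 and 463 in replicate 3 (351 ± 158, SD, n = 2). The summit lay 90 bp upstream of the start of eIF6, and the other gene within 1 kb, ytr, started 682 bp away, so this high site lay nearest to a member.

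Of the 8 elongation factor genes 5 had a site (62.5%, Wilson 95% interval 30.6 to 86.3%), beside 25.9% of all protein-coding genes. All 8 had a pooled region, beside 57.3% of all protein-coding genes. Gene eEF1gamma, part of the complex that recharges eEF1alpha with GTP, was highest with 337 (3R, 29220026 to 29220259), and the summit lay 33 bp upstream with no other gene start within 1 kb. Its signal was 164 in replicate 1 and 173 in replicate 3 (168 ± 6.18, SD, n = 2). At eEF1alpha1, which delivers aminoacyl-tRNA to the ribosome, 2 IDR summits stood apart, one of 192 at 55 bp downstream of an inner start and one of 136 at 105 bp upstream of an outer start. The higher one had 65.5 in replicate 1 and 120 in replicate 3 (93.0 ± 38.8, SD, n = 2). At eEF2, the translocation factor, the pooled signal was 140, with 75.8 in replicate 1 and 63.6 in replicate 3 (69.7 ± 8.62, SD, n = 2). It was 119 at eEF5, the fly eIF5A, with 57.8 in both replicates. The selenocysteine factor gene eEFSec had 108, with 76.1 in replicate 1 and 23.5 in replicate 3, the lowest ratio of replicate 3 to replicate 1 among the 29 sites. Its summit lay 359 bp upstream and 46 bp from the start of the peroxisomal oxidase gene Acox57D-p. Below the list were eEF1delta (62.6), eEF1beta (55.2) and eEF1alpha2 (29.8, at 898 bp upstream).

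Of the 7 paralog pairs and groups, 4 had a site at 1 member, eIF3g and eIF4H had none, and the eIF4E family had 3. Of 19 genes in such pairs or groups 7 had a promoter site (36.8%, Wilson 95% interval 19.1 to 59.0%). Of the 33 other members it was 22 (66.7%, interval 49.6 to 80.2%), and over all protein-coding genes 25.9%. These intervals overlap, the first of them holds the share of all genes, and the difference between the members was not tested. The pooled signal was 192 at eEF1alpha1 and 29.8 at eEF1alpha2, where replicate 1 alone had an overlapping region (23.0). This eEF1alpha2 summit lay 898 bp upstream, nearer to CG11563 (535 bp) and CstF50 (607 bp), and a pooled summit 17 bp upstream of eEF1alpha2 had 26.4. The pooled signal was 111 at eIF3d1, with 63.0 in replicate 1 and 43.8 in replicate 3 (53.4 ± 13.6, SD, n = 2), and no region lay near eIF3d2. It was 85.4 at eIF3f1, with 40.4 in replicate 1 and 44.3 in replicate 3 (42.4 ± 2.75, SD, n = 2), and 21.4 at eIF3f2, where again replicate 1 alone had a region (15.3). In the eIF3g and eIF4H pairs neither gene had a promoter site, and in each the first copy had a pooled region: 25.3 at eIF3g1 (15.2 in replicate 1 and 12.2 in replicate 3) and 65.1 at eIF4H1 (46.1 in replicate 1 and 28.1 in replicate 3). The eIF4G pair ran the other way, with 141 at eIF4G2, a gene known for its role in the male germ line, and 43.0 at eIF4G1. In the eIF4E family 3 of 7 genes had a site: eIF4EHP (167), eIF4E6 (116, with 62.3 in replicate 1 and 45.8 in replicate 3, 54 ± 11.6, SD, n = 2) and eIF4E1, the main cap-binding protein (100, with 49.0 in replicate 1 and 51.0 in replicate 3, 50 ± 1.38, SD, n = 2). The eIF4E6 summit lay 49 bp from its own start and 13 bp from that of CG1951.

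**Figure D2:**
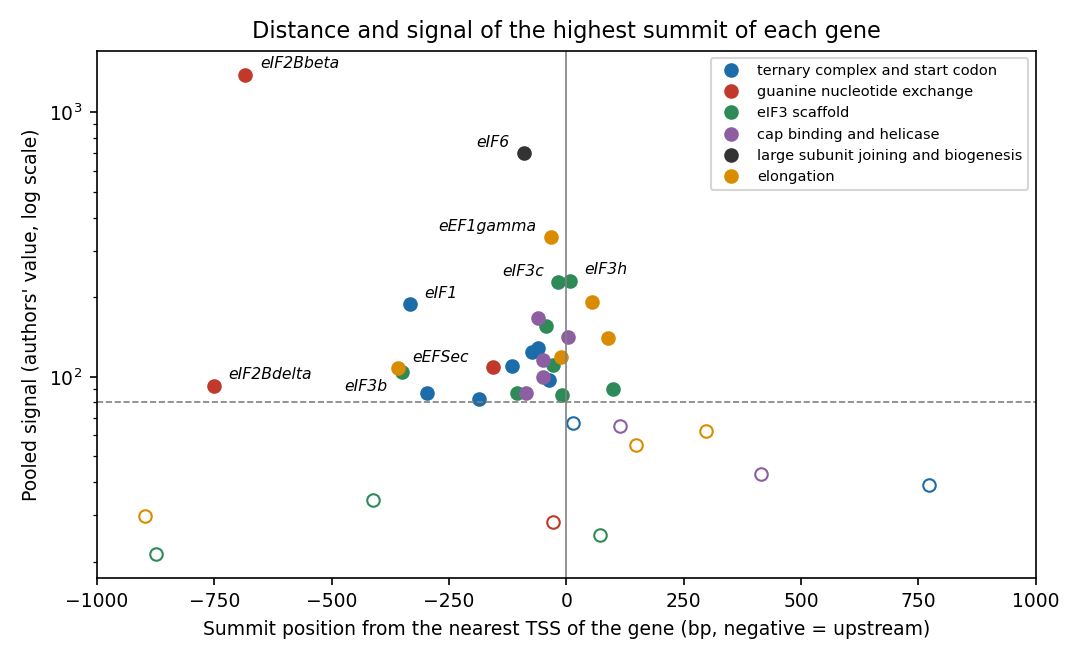
Position of the highest summit from the nearest TSS of each gene (x axis, bp, negative upstream along the gene) against the authors' pooled signal (y axis, log scale), coloured by role. Filled circles are the 29 genes with a site in the IDR list, open circles the 11 with a pooled region only, and the dashed line is the lowest signal of the IDR list; 24 of the 29 filled circles lie upstream of the start.

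The Groucho summits lay mostly on the upstream side of the nearest start of the translation factor genes, as they did over all genes with a site. The median distance of the 29 highest summits from the nearest start was 74 bp, beside 117 bp over the 3612 genes with a promoter site. Measured from the outermost 5′ end of each gene alone it was 115 bp, beside 125 bp, and without replicate 3 it was 98 bp, beside 113 bp, so the size of this difference depended on the starts and replicates used. Of the 29, 19 (65.5%) lay within 100 bp, beside 45.2%, and 27 lay within 500 bp (93.1%), beside 84.3%. Upstream of the start lay 24 of 29 (82.8%), beside 76.7% over all genes with a site. Examples on the downstream side were eIF3h at 7 bp, eIF4G2 at 4 bp, eIF3j at 99 bp, eEF2 at 89 bp and eEF1alpha1 at 55 bp. In the gene models 20 summits lay outside the gene, 7 in a 5′ UTR exon, 2 in an intron and 0 in coding sequence. At eIF2A, eIF4A, eEF5 and eIF5B the summit lay upstream of the nearest start but inside the gene, past an outer start. The farthest inside the limit of 1 kb was eIF2Bdelta at 751 bp, and the nearest outside it was eEF1beta, whose closest IDR summit lay 1227 bp away. For the 12 genes with no region the nearest IDR summit was between 3819 bp (eIF3i) and 4762879 bp (eIF4B) from a start.

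Many sites were shared with a neighbour that starts nearby, at 1 kb and in the full IDR list in a share close to that of all genes with a site. At 18 of the 29 genes (62.1%) the highest summit also lay within 1 kb of the start of another protein-coding gene, beside 58.8% over all genes with a site. With the distance set to 500 bp the share was 44.4%, beside 50% over all genes with a site, and with 250 bp it was 34.8%, beside 40.6%, so its place above or below that of all genes turned with the distance. At 16 of the 29 (55.2%) such a neighbour was divergent, that is on the other strand with the starts back to back, beside 52.2% over all genes with a site. The 18 divergent neighbours started between 58 and 1053 bp away, with a median of 282 bp. Both ends of this range belong to eIF2Bdelta, with roh at 58 bp and CG30414 at 1053 bp. The neighbour was nearer to the summit at 10 of the 29 genes (34.5%), beside 28.9% over all genes with a site. Besides eIF2Bbeta with Ugalt, eIF1 with RpL28 and eEFSec with Acox57D-p, these 10 included eIF3b, whose summit lay 350 bp from its start and 3 bp from that of Patronin, a microtubule minus-end gene. Others were eIF1A with Vps39 (115 bp from eIF1A and 104 bp from Vps39) and eIF2Bepsilon with Ocrl. The same held for eIF2Bdelta with CG30414 and roh, eIF3a with CG1074 and eIF4E6 with CG1951. At eIF2gamma the summit lay 60 bp from a start that eIF2gamma shares with Su(var)3-9, a histone methyltransferase gene, and 34 bp from the divergent gene Set, so 3 genes share this promoter. At eIF4G2 the start was likewise annotated for CG33111. At eIF1A, eIF2gamma, eIF3a and eIF3m the distances to member and neighbour were close to each other. The eIF3a summit lay 44 bp from eIF3a and 26 bp from CG1074. The eIF3m summit lay 105 bp from eIF3m and 121 bp from CG8323, so there the member was the nearer. In each case the distances differed by less than 30 bp, the median gap between the summits of the replicates. Which gene was nearer is thus not settled at these genes. The signal was 86.5 to 1387 at the 18 shared sites (median 124) and 82.7 to 337 at the 11 sites of single genes (median 100), and the ranges overlapped.

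**Figure D3:**
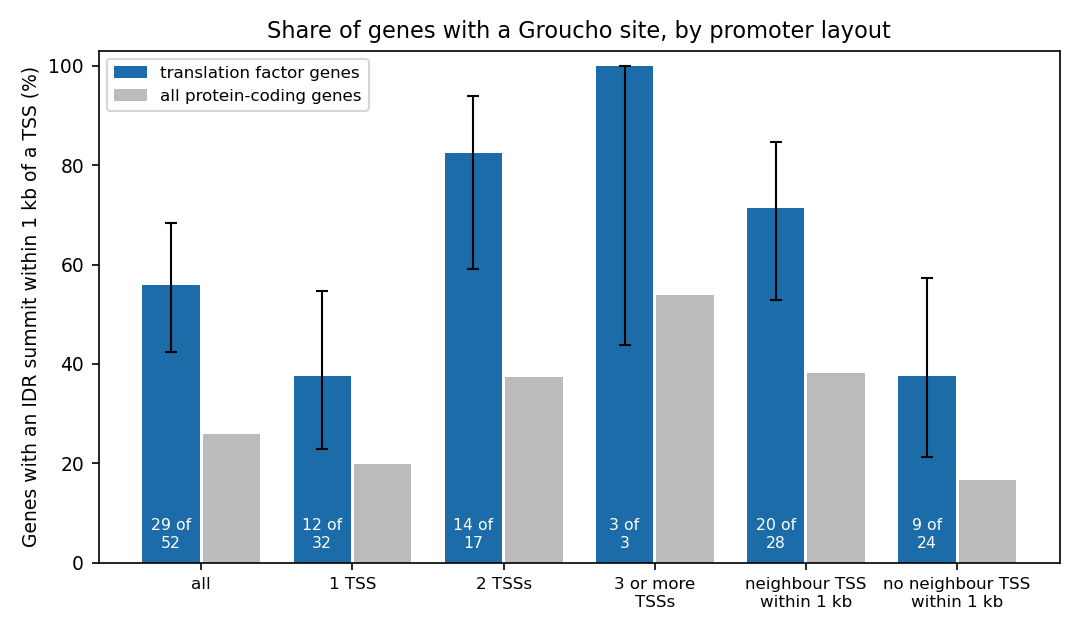
Share of genes with a promoter site (y axis, percent) for translation factor genes (blue, with Wilson 95% intervals and counts) and all protein-coding genes (grey), as a whole, by number of annotated TSSs and by whether another gene starts within 1 kb. The blue bars stand above the grey ones in each class, 37.5% against 19.9% for genes with 1 TSS and 37.5% against 16.6% for genes with no neighbour.

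The number of starts and the closeness of neighbours moved with the presence of a site in the family and in the whole genome. A summit counted when it lay within 1 kb of any start of a gene, so genes with more starts had more places for one. A summit near the starts of several genes counted for each of them. How far this counting entered the shares below was not tested. Among translation factor genes with 1 annotated TSS 12 of 32 had a promoter site (37.5%), beside 19.9% of all genes with 1 TSS. With 2 TSSs it was 14 of 17 (82.4%), beside 37.4%, and with 3 or more it was 3 of 3 (100%), beside 53.9%. Another protein-coding gene started within 1 kb of 28 of the 52 genes (53.8%), beside 42.9% of all genes. Of these 28, 20 had a promoter site (71.4%), beside 38.2% of all genes with such a neighbour, and of the other 24 it was 9 (37.5%), beside 16.6%. All 12 genes without any region had a single annotated TSS, and 3 of the 12 had a neighbour start within 1 kb. Over all genes, too, a pooled region was less frequent with 1 TSS (49.9%) than with 2 (73.1%) or 3 or more (88.5%). It was also less frequent over all genes without such a neighbour (46.1%) than with one (72.2%). The share with a promoter site was higher in the family than over all genes in each of these classes, and the differences were not tested.

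Both replicates held a region at each of the 29 sites, which is no independent check because both entered the authors' selection. Replicate 3 had the higher signal at 20 of 29 sites (69.0%), beside 65.3% over all genes with a site found in both. The ratio of replicate 3 to replicate 1 ran from 0.310 at eEFSec to 2.04 at eIF2beta, with a median of 1.10. The summits of both replicates lay within 50 bp of each other at 18 of the 29 sites, with a median of 30 bp and a largest gap of 261 bp at eIF3h. At 22 of the 29 genes the site was among the 4492 highest regions of each replicate, which is the length of the IDR list. In replicate 1 eIF2beta, eIF3f1 and eIF4A ranked lower than that, and in replicate 3 eEFSec, eIF2D, eIF3d1 and eIF3j did. Gene eIF4H1 had a region among the highest of replicate 1 (46.1) without one in the IDR list.

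The DRE word was more frequent in these promoters than over all genes, and it lay near 9 of the sites. Words were searched on both strands, and a match describes letters, not binding. In the promoters, taken as 250 bases before to 50 after the outermost start of the gene, 14 of the 52 genes held TATCGATA (26.9%), beside 9.36% of all promoters. It stood in 10 of 29 promoters of genes with a site (34.5%), beside 15.3% of all genes with a site, and in 4 of 23 of the others (17.4%), beside 7.28% of all genes without one. In the 100 bp on each side of the highest IDR summit the word lay in 9 of 29 windows (31%), beside 11.6% of the windows of all genes with a site. These 9 genes were eEF1gamma, eIF1, eIF1A, eIF2A, eIF2gamma, eIF3a, eIF3f1, eIF4E6 and eIF6. At eEF1gamma, eIF3f1 and eIF4E6 the word lay 5 bp from the summit, and at eIF2gamma the window held 3 such words. These differences were not tested.

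The surroundings of the word differed from gene to gene, as stretches of 30 bases outside exons show for the genes in which the word lies clear of annotated exons; capitals mark the word, and these were chosen after the counts were seen. They are given on the strand of the gene in dm6, at chr3R:29220120-29220149 (plus strand) for eEF1gamma, chr3L:3223034-3223063 (plus strand) for eIF1, chr3R:4433915-4433944 (minus strand) for eIF3a, chr3R:15263517-15263546 (minus strand) for eIF2gamma and chr3R:18274452-18274481 (plus strand) for eIF1A.
eEF1gamma: ggcctaggaaaTATCGATAtatcgccgtaa
eIF1: ggcagggcaacTATCGATAagcatttcgta
eIF3a: tcggcctgaacTATCGATAacgcagccagg
eIF2gamma: gggcggcactcTATCGATAcgcatcgcagt
eIF1A: atgatgatagaTATCGATAgctttagcggt

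Words of repressors known to recruit Groucho gave mixed counts, in the 29 promoters of genes with a site and in the windows around their summits. The Hairy-type words CACGTG and CACGCG stood in 8 promoters (27.6%, beside 12.4% over all genes with a site) and in 5 summit windows (17.2%, beside 10.4%), those of eIF2Bepsilon, eIF2D, eIF3d1, eIF4E6 and eIF4EHP. The Brinker word GGCGCC stood in 1 promoter (3.45%, beside 5.45%) and in 3 summit windows (10.3%, beside 3.52%), those of eIF2A, eIF3d1 and eIF4A. The Runt word TGTGGT stood in 1 promoter (3.45%, beside 12.5%) and in 2 summit windows (6.9%, beside 8.22%), those of eIF2Bbeta and eIF3h. For Brinker and Runt the count thus rested on 1 to 3 genes, and for Brinker its place above or below that of all genes depended on the window.

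Core promoter words other than the DRE were searched in the same 29 genes. The motif 7 core CATCNCTA stood in 7 promoters (24.1%, beside 11.6%) and in 3 summit windows (10.3%, beside 9.33%). The motif 1 core GGTCACAC stood in 2 promoters (6.9%, beside 12.4%) and in 4 summit windows (13.8%, beside 7.42%), so its place too depended on the window. The E-box CAGCTG was below the share of all genes in both, with 2 promoters (6.9%, beside 22.1%) and 2 summit windows (6.9%, beside 16.1%). The GAGA word GAGAGAG stood in 0 promoters (beside 7.09%) and 0 summit windows (beside 5.01%). A TCT initiator, read as TCTTTT or as TCTTTC, with C also allowed as the first letter, on the strand of the gene and with its second letter C within 5 bases of the annotated start, was found at 3 of 52 genes (5.77%, beside 1.38% of all genes): eIF3f1, eIF3i and eIF4A. Over every annotated TSS it was found at 6 (11.5%, beside 2.13%), with eEF2, eEF5 and eIF3m added. Counts of this size rest on few genes and were not tested.

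**Figure D4:**
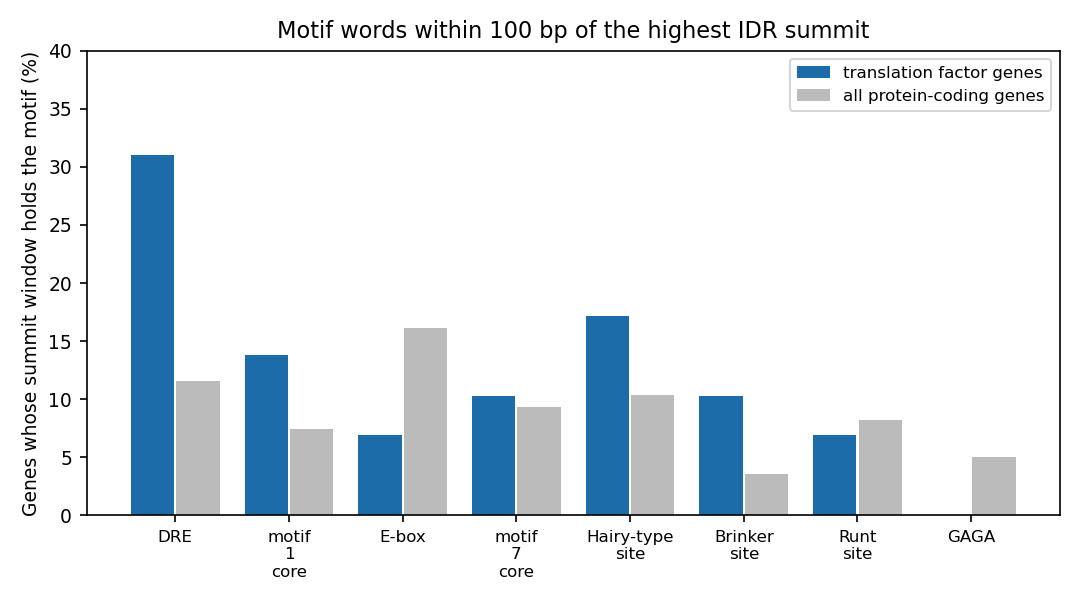
Share of genes whose window of 100 bp on each side of the highest IDR summit holds the word (y axis, percent), for the 29 translation factor genes with a promoter site (blue) and the 3612 protein-coding genes with one (grey). The DRE stands at 31% against 11.6%, and the E-box at 6.9% against 16.1%.

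Other genes of translation, taken from lists made with earlier results of these embryos known, showed a mixed pattern. Of 5 termination and recycling genes 3 had a promoter site: HBS1 (pooled signal 88.5), eRF1 (88.3) and eRF3 (86.5). Each of these sites also lay within 1 kb of the start of a neighbour, CG12025, Rbbp5 and SC35 in turn. Of 15 regulators of initiation 8 had one. The highest were Lk6, a kinase of eIF4E, with 1244 and larp, which encodes an RNA-binding protein of mRNAs for the translation machinery, with 985. Lower ones included Thor, the inhibitor of eIF4E binding to eIF4G, with 216, NAT1 with 184, Rack1 with 178 and pAbp, the poly(A)-binding protein gene, with 165. The Rack1 site was shared with mts, and the pAbp summit lay 516 bp downstream of its start. Of 9 mitochondrial translation factor genes 1 had a site, mRF1 with 102, shared with CG9426. Together these were 12 of 29 genes (41.4%), beside the 25.9% of all protein-coding genes.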

How the data were processed

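The authors deposited lists of regions with a signal value per region (column 7), in the dm3 and dm6 builds; the dm6 lists were used. Per the deposited manifest, 30000 regions came from each replicate's alignment with a control alignment, 30000 from both alignments pooled, and the IDR list of 4492 regions from these 3 lists. Those 4492 regions are the ones of highest pooled signal. Not given in the sources used here: peak caller, settings, aligner and IDR threshold. Depth is unknown. The control was not analysed here.

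Gene models came from Ensembl release 115 and sequence from RefSeq Release 6 (dm6); all 52 genes had equal coordinates in both, and 0 regions passed an arm's end. A gene had a site when a summit lay within 1 kb of the start of any of its transcripts. The highest such region stands for the gene. Replicate values are the highest region of that replicate's list that overlaps the site by at least 1 bp; replicate and pooled signals differ in scale. The 95% intervals follow Wilson, for counting error only. Labels call both samples biological replicates. Python 3.11.15, numpy 2.4.6 and scipy 1.17.1 were used, and the assignment was checked on simulated summits. No set or chance test was made.

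All genes with a promoter site are named with their signal, and the 12 highest and all paralogs with replicate values. The genes, lists and motifs were chosen with earlier results of these data known. Alternatives were distances of 500 and 250 bp, the outermost 5′ end of a gene alone, the 2246 highest regions of the IDR list, single-replicate lists, other rules for shared summits, overlap in place of summits, and other motif windows; the TCT count over every annotated TSS was added after seeing the data.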

Additional observations from a re-analysis of the deposited data

How the results depend on the processing

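The share of translation factor genes with a promoter site stood above that of all protein-coding genes in all 10 settings for the IDR list and in all 9 for the pooled list. It moved with the regions and the handling of shared summits: 28.8% of the 52 genes (15.1% of all genes) in the 2246 highest regions of the IDR list, 36.5% (19.2%) with each summit counted for the nearest start only, and 21.2% (11.1%) with summits near more than 1 gene left out. In single-replicate lists cut to 4492 regions it was 48.1% (25.4%) without replicate 1 and 51.9% (25.5%) without replicate 3. For the pooled list the share was 59.6% (45.5%) within 250 bp and 44.2% (32.5%) without shared summits. It was 75% (59.1%) without replicate 1 and 76.9% (58.3%) without replicate 3. The median signal of the family was 167 (161 over all genes with a site) in the 2246 highest regions, where it was no longer the lower of the pair. On the replicates' own scales it was 63.6 (69.2) without replicate 1 and 63.0 (62.3) without replicate 3. The share of sites shared with a neighbour was 34.8% (40.6%) within 250 bp. It was 68% (58.8%) without replicate 1, 74.1% (57.7%) without replicate 3 and 73.3% (60%) in the 2246 highest regions. It was 44.4% (50%) within 500 bp, so its place above or below that of all genes depended on the distance. The median distance to a start was 78 bp (126 bp) without replicate 1 and 98 bp (113 bp) without replicate 3, and 115 bp (125 bp) with the outermost 5′ end of each gene alone. The motif 7 core stood in 10.3% of summit windows and 24.1% of promoters; the Brinker word stood in 10.3% (3.52%) and 3.45% (5.45%) and the motif 1 core in 13.8% (7.42%) and 6.9% (12.4%), so both changed sides relative to all genes with a site. Of 44 alternatives 34 stayed inside the 95% interval of the reported value. Staying inside does not mean that a result held against all genes. The changes of side of the Brinker word, the motif 1 core and the shared sites within 500 bp all lay inside it. The median signals from single replicates lay outside it, but their scale differs from the pooled one, so for them the count is no comparison. The causes of these shifts were not tested. No paired analysis was possible because there is 1 group. Depth is unknown, so the absence of a region at 12 genes is a statement about the deposited lists, not about binding.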
